A study of Mus musculus with 4 samples.

Results

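Clusters of closely spaced CpGs near the ends of protein-coding genes were mostly either unmethylated or fully methylated in germline stem cells, and the small set described here lay in between. Clusters were runs on chromosomes 1 to 19 that held 20 or more CpGs, had no gap above 50 bp and spanned 200 bp or more. A cluster counted as lying at a gene end when its midpoint was within 2 kb of either end of a protein-coding gene of the mm10 annotation. Members were chosen by the measured level in the cells cultured for 5 months, which had to be 10% to 70%. The level is the methylated percent of the calls summed over a cluster, taking CpGs called 5 times or more in each table. Of 22566 clusters, 22500 had at least 4 such CpGs, 14505 of those lay at a protein-coding end, and 160 were partly methylated. The 160 clusters belonged to 151 nearest genes. 8 genes held 17 of them, and 18 clusters lay within 2 kb of ends of several genes. 14097 of the 14505 clusters at gene ends were under 10% in the 5-month cells and 248 were over 70%.

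Germline stem (GS) cells are cultured spermatogonial stem cells, the self-renewing source of sperm in the testis. They were derived from testis of wild-type Green mice, whose GFP transgene is C57BL/6 Tg14(act-EGFP)OsbY01 and whose background is DBA/2, so both ages share that transgene and background. They were grown with FGF2, GDNF and a little serum until roughly 5 months (5M-GS) or roughly 60 months (60M-GS) had passed. Bisulfite, which converts unmethylated cytosine, was applied before the sequencing adaptors were attached, and the whole genome was sequenced. The labels name 2 replicates per culture age and tie both to 1 table, so the replicates were taken as pooled and no spread between them can be given. Every comparison is between the calls of 2 pooled libraries, not between the ages as such, and intervals (95%) and tests cover counting error only. The labels do not say how many mice or separate cultures stand behind a replicate.

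In mammals a methyl group is added to cytosine mostly where it precedes guanine, and most CpGs of the genome are methylated. Dense stretches of CpGs at gene starts usually stay free of methylation, and promoters that are methylated there are as a rule silent, whereas methylation inside and at the far end of a gene is common in active genes. A middle level in bulk DNA means that some copies of a CpG were methylated and others not, and it does not say whether cells, alleles or neighbouring CpGs differed. In male germ cells most methylation is laid down before birth, and the starts of many genes used later in meiosis or in spermatids remain unmethylated in spermatogonia. No expression was measured here.

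Only 9 of the 160 clusters (5.62%) overlapped a promoter entry of the RefSeq table for GRCm38.p6 (250 bases before to 50 after a gene start), against 8410 of all 14505 clusters at gene ends (58.0%). For 41 of the 160, among them all 18 at the protocadherin genes described below, the entries gave no strand for the nearest gene. Its start may be missing from the entries, so some overlaps may not have been counted. The sequences below are the 250 bases before the start of 5 genes whose cluster touched or lay close to the start, from that C57BL/6J reference and not from the DBA/2-derived cells, each 5′ to 3′ on the gene's own strand with every CpG in capitals. They are shown because the first 3 starts went from low to nearly full, and the last 2 starts remained near 0. A partly methylated cluster overlapped the start of Rnf7, whose near-0 CpGs there count in its level, and another lay beside that of Zfp180. These genes were chosen after their values had been seen.
Papolb: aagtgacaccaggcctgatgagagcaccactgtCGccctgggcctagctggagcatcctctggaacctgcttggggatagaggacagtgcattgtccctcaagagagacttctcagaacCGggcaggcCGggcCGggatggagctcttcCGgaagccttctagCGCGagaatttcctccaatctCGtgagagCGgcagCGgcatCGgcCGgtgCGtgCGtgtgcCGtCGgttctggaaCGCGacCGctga
Dpep3: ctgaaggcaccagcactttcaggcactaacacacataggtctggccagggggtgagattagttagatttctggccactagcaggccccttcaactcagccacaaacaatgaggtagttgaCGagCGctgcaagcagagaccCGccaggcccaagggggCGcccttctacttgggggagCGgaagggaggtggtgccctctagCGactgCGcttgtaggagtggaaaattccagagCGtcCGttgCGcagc
Tmprss12: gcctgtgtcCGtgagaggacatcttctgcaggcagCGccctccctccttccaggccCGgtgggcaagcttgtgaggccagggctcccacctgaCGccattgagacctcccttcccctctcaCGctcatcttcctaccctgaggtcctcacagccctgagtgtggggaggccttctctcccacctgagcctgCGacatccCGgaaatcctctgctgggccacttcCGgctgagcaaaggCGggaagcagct
Rnf7: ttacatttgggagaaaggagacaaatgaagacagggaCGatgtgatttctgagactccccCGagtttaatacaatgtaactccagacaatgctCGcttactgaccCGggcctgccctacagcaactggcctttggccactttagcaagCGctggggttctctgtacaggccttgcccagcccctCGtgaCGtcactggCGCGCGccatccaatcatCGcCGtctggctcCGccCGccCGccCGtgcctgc
Zfp180: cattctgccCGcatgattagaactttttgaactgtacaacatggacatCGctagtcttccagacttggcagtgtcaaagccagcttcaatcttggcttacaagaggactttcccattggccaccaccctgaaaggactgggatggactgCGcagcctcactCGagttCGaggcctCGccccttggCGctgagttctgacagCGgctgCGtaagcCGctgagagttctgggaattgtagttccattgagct
The Papolb stretch (chr5:142530077-142530326, minus strand) holds 19 CpGs, which stood at 9.65% of 601 calls in 5M-GS and, in 60M-GS, at 95.3% of 528. Pairs of levels are given in this order from here on, 5M-GS first. That of Dpep3 (chr8:105979420-105979669, minus strand) holds 10 CpGs, at 4.04% of 198 calls and 94.5% of 293. That of Tmprss12 (chr15:100280587-100280836, plus strand) holds 9 CpGs, at 13.9% of 273 calls and 87.4% of 222. In these 3 stretches no single CpG was above 40% in 5M-GS and none was below 69.2% in 60M-GS. The Rnf7 stretch (chr9:96478676-96478925, minus strand) holds 16 CpGs, of which 14 were measured, at 0.453% of 221 calls and 0% of 244 calls. That of Zfp180 (chr7:24081647-24081896, plus strand) holds 10 CpGs, at 0.463% of 216 calls and 0.412% of 243 calls. The starts that filled and those that did not overlapped in their number of CpGs.

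The first question was what had become of the partly methylated clusters in 60M-GS. Most were nearly full: the median level was 31.8% in 5M-GS (lowest 10.0%, highest 68.4%) and 88.7% in 60M-GS (lowest 0.587%, highest 96.7%). Of the 160, 135 (84.4%) were higher by at least 20 percentage points, which is called a rise below, 15 stayed within 10 points, 9 moved by 10 to 20 points and 1 fell. In 60M-GS 108 clusters stood at 80% or more, 72 at 90% or more and 28 under 50%. All 135 rises passed a two-sided Fisher's exact test at an adjusted p under 0.05 (Benjamini-Hochberg over all 22500 clusters). Neighbouring CpGs share reads, and with each cluster's calls divided by its number of CpGs 79 of the 135 were still called. Over all clusters 5.19% gained methylation by this rule and 0.12% lost it, 5.2% were higher by 20 points without the test, and over clusters at protein-coding ends 2.02% gained and 0.0138% lost. Because the 5M-GS level chose the members, these counts are a description and nothing is read from the difference. The same choice made on the 60M-GS level took 223 clusters, of which 123 rose and 1 fell.

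**Figure D1:**
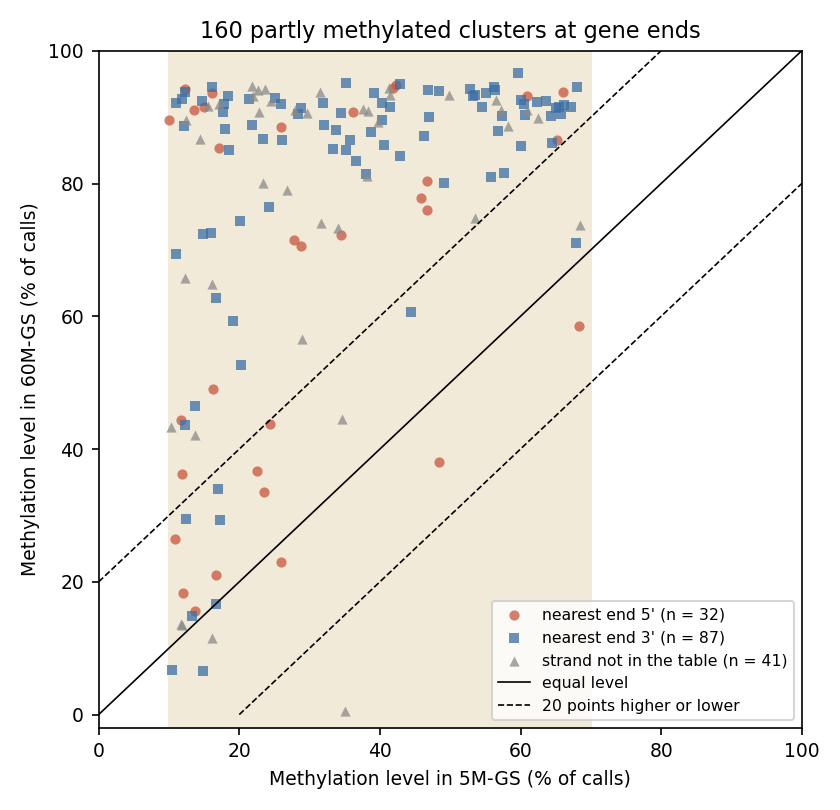
Methylation level of the 160 clusters in 5M-GS (x axis, percent of calls) and 60M-GS (y axis, percent of calls), by the kind of the nearest gene end, with the range 10% to 70% that chose them shaded. Most points lie above the upper dashed line (20 points higher), and 108 clusters lie at 80% or more, among them 39 of the 78 that began under 30%.

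Clusters of each starting level rose, and the lowest ones ended somewhat lower. Of 78 clusters at 10% to 30% in 5M-GS, 60 rose, and the median of all 78 went from 16.9% to 79.6%. Of 44 clusters at 30% to 50%, 40 rose, and the median went from 39.5% to 88.5%. Of 38 clusters at 50% to 70%, 35 rose, and the median went from 60.6% to 91.5%.

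**Figure D2:**
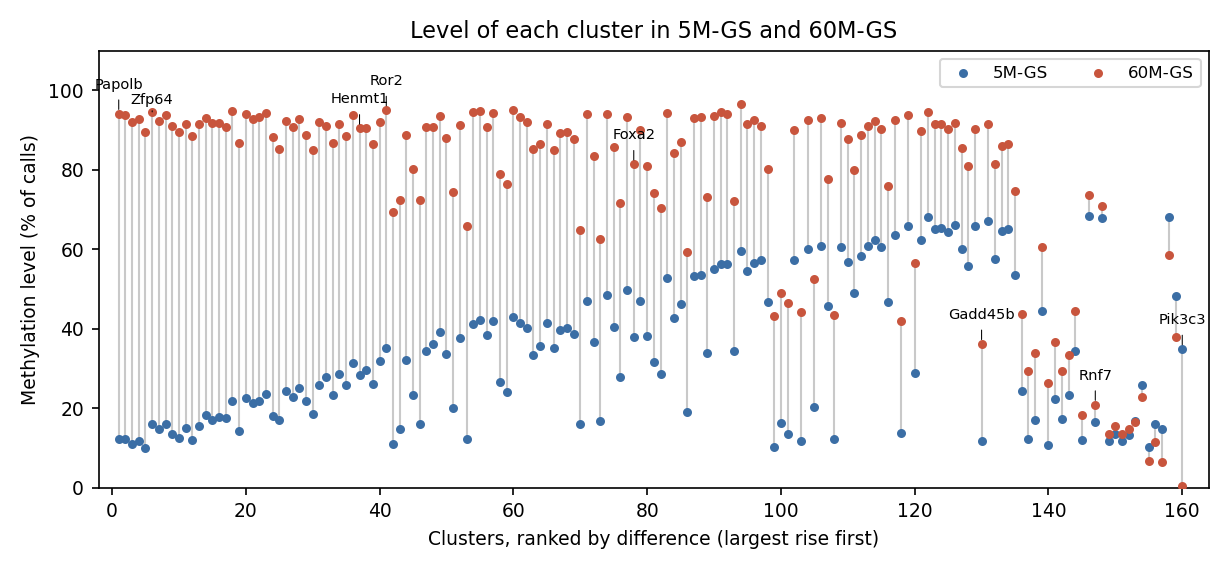
Level of each cluster in 5M-GS (blue) and 60M-GS (red), in percent of calls, ordered by the difference from the largest rise (1) to the fall (160), with 8 genes named. At the left the red points lie near 90% and the blue points are low, since the order follows the difference. The gap closes toward the right, where the 15 clusters that stayed have both points together.

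Of the largest rises, those at genes known from testis are given first. The cluster over the start of Papolb, a poly(A) polymerase of the testis that acts in spermatids, had the largest rise of all: chromosome 5 from 142529705 to 142530207 (mm10), 55 CpGs, 12.3% of 1177 calls and 94.2% of 1290 (interval of the difference 79.4 to 84.0 points). Hspa1l, a testis member of the Hsp70 chaperones, held 2 clusters toward its 3′ end, of which the second had a rise below the median of all members. The one 1710 bp from that end (chromosome 17 from 34977366 to 34977670) stood at 12.2% of 516 calls and 93.8% of 496, and the one 765 bp from it at 56.4% and 94.2%, a rise not called with calls divided by CpGs. Dpep3, a membrane dipeptidase of germ cells, stood at 16.2% of 965 calls and 93.7% of 1288 over its start (chromosome 8 from 105978926 to 105979549, 39 CpGs). Tmprss12, a serine protease of the testis, stood at 13.6% of 800 calls and 91.1% of 676 over its start (chromosome 15 from 100280778 to 100281107, 22 CpGs). All 5 of these clusters were above 90% in 60M-GS, and 4 of them had begun under 20%. A low start and a high end follow from ranking by the difference, here and among the other largest rises below.

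From the list of meiosis and germline defence genes, 2 of 3 members rose. Beside Dpep3 this was Henmt1, the methyltransferase that protects the ends of piRNAs, whose cluster 220 bp beyond the 3′ end stood at 28.4% of 310 calls and 90.5% of 294. The third cluster, within 2 kb of both Zcwpw1, a meiotic reader of histone marks, and Mepce, stood at 11.8% and 13.5%. Over this list 7 of 83 clusters at gene ends gained methylation (8.43%, against 2.02% over all end clusters). From the list of spermatid and sperm genes, 3 of 3 members rose, the 2 clusters of Hspa1l and one toward the 3′ end of Ace, the angiotensin-converting enzyme that has a testis form, at 26.1% of 468 calls and 86.5% of 683. Over that list 4 of 46 end clusters gained (8.70%). The members belong to few genes, so these lists are read only as counts.

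The other largest rises belonged to genes of several kinds. Zfp775, a zinc finger gene, held 2 members toward its 3′ end, at 11.9% and 92.8% (58 CpGs, 1454 and 1601 calls) and at 18.6% and 85.0%. Zfp64, a zinc finger transcription factor, stood at 16.1% of 1111 calls and 94.6% of 1020, at 915 bp from its 3′ end (chromosome 2 from 168893943 to 168894549). Actl10, an actin-like gene, stood at 10.0% of 797 calls and 89.6% of 878 at 418 bp inside its start. Fgf6, a growth factor of muscle, stood at 15.0% of 586 calls and 91.5% of 634 at 227 bp from its start. Pus7l, a relative of pseudouridine synthases, stood at 12.2% of 1218 calls and 88.6% of 1035 toward its 3′ end. They ended between 85.0% and 94.6%, at starts and toward 3′ ends alike.

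Developmental regulators, transcription factors that pattern the embryo, gave 4 members and all 4 rose. Msx1, a homeobox gene of face and tooth, stood at 14.7% of 992 calls and 92.4% of 1127 toward its 3′ end (chromosome 5 from 37821293 to 37821698), while its flanks stood at 28.9% and 32.8%. Hoxc13, the homeobox gene of hair and nail, stood at 12.4% of 1181 calls and 89.5% of 1133 (chromosome 15 from 102927012 to 102927542). Foxa2, a forkhead factor of endoderm, held a long cluster of 83 CpGs inside the gene at 38.0% of 1916 calls and 81.5% of 2082. Its side toward the 3′ end went from 60.7% to 86.6% and its other side from 12.6% to 77.0%, with flanks at 14.8% and 15.3%. Msx1 and Foxa2 thus ended far above their surroundings. The rises of Foxa2 and Tbx4 were not called with calls divided by CpGs. Tbx4, a T-box factor of the hindlimb, stood at 16.2% of 357 calls and 49.1% of 432 at 270 bp outside its start, and is the member of this list that remained partly methylated. Over the list 12 of 606 clusters at gene ends gained (1.98%), close to the 2.02% over all end clusters.

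Zinc finger genes with a Zfp name gave 8 members, of which 7 rose, while 11 of their 333 end clusters gained (3.3%). Beside Zfp775 and Zfp64 these were Zfp703, a co-repressor, at 26.7% and 79.1%, Zfp213 at 54.5% and 91.5%, a cluster near both Zfp575 and Ethe1 at 41.9% and 94.4%, and Zfp36, an RNA-binding protein that shortens mRNA life, at 46.7% and 80.3%. With calls divided by CpGs Zfp213 and Zfp36 were not called. Zfp180 was the member that did not pass 20 points, with 22.5% of 966 calls and 36.7% of 1082.

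The clustered protocadherins, neuronal adhesion proteins whose variable exons each have their own promoter, gave the most members of any list: 18, of which 16 rose and 2 stayed. Their median went from 23.6% to 90.7%. All lie on chromosome 18, which held 19 of the 160 members (4.34% of its end clusters). Pcdhb15 stood at 15.5% of 761 calls and 91.7% of 1010, Pcdha7 at 21.9% and 94.7%, Pcdhb20 at 22.6% and 94.1%, Pcdhb10 at 23.7% and 94.3% and Pcdhb14 at 24.5% and 92.4%. The 2 clusters of Pcdhb19 stood at 22.8% and 90.7% and at 58.2% and 88.7%, the latter not called with calls divided by CpGs. The 2 clusters that stayed both belonged to Pcdhb22. One stood at 11.7% of 971 calls and 13.7% of 1025, and the other at 68.4% of 95 calls and 73.8% of 42, on 8 measured CpGs of 39, with a difference interval of -11.7 to 20.1 points. With CpGs of a single call admitted this shallow cluster turned to a difference of -21.4 points, so its direction is not settled. Over the list 27 of 59 end clusters gained (45.8%). Without the protocadherins 119 of 142 members rose.

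Single members of other lists rose as well. Ror2, the receptor tyrosine kinase for Wnt5a, was the only member from the Wnt pathway and stood at 35.2% of 1053 calls and 95.1% of 1366, at 1761 bp inside its 3′ end. Each of its CpGs was between 11.5% and 54.2% in 5M-GS and at 87.9% or more in 60M-GS. Over the Wnt list 4 of 112 end clusters gained (3.57%). Gadd45b, a stress protein that feeds into JNK signalling, was the only JNK pathway member and stood at 11.9% of 565 calls and 36.3% of 659, and 2 of 82 end clusters of that list gained (2.44%). Hk1, the hexokinase that opens glycolysis, stood at 53.3% of 625 calls and 93.2% of 759, and 1 of 40 end clusters of the glycolysis list gained (2.5%). The receptors Gpr37l1 (17.9% and 91.9%) and Gpr4, a proton sensor (68.0% and 94.5%), both rose, as did the chemosensory receptors Olfr1349 (23.4% and 86.7%) and Vmn2r86 (12.2% and 43.6%). With calls divided by CpGs the rises of Gadd45b, Hk1, Gpr4 and Vmn2r86 were not called. For the G protein-coupled receptors 8 of 184 end clusters gained (4.35%) and for olfactory and vomeronasal receptors 3 of 14 (21.4%).

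Other lists gave no member. No partly methylated end cluster belonged to the lists of spermatogonial genes (67 end clusters), imprinted genes (69), DNA methylation enzymes (13), solute carriers (324), cadherins, collagens and laminins (57) or keratins and barrier genes (33). Members were only 160 of all 14505 end clusters, so most of these lists were too small for an absence to be read. In these lists 0, 1, 0, 3, 1 and 1 end clusters gained, in that order. Those are 0%, 1.45%, 0%, 0.926%, 1.75% and 3.03%, against 2.02% over all end clusters. Ion channels gave 1 member, Clcn4, described below, and 3 of their 206 end clusters gained (1.46%). The list of replication-dependent histones matched no gene symbol of the annotation and was not used.

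The next question was which genes kept their middle level. The 15 clusters that stayed had medians of 16.1% and 16.7%. Among those with the smallest differences and 500 calls or more in each table were Myh4, a myosin of fast muscle (16.8% of 591 calls and 16.7% of 678), Ikbip (13.2% and 14.9%), the cluster of Mepce and Zcwpw1 given above, Ankle1, a nuclease (13.7% and 15.5%), the deeper cluster of Pcdhb22, Rapgefl1 (25.96% and 22.98%), Apoa5, an apolipoprotein (10.4% and 6.73%), Rnf7, a subunit of cullin ubiquitin ligases (16.6% of 1496 calls and 21.0% of 1817), and the cluster between Wdr46, a nucleolar protein, and Pfdn6, a prefoldin subunit (11.98% of 1194 calls and 18.3% of 1138). For Myh4 the interval of the difference was -4.24 to 4.01 points. For Rnf7 it was 1.65 to 6.97 points and for Wdr46 3.40 to 9.21 points, so these clusters were a little higher in the pooled 60M-GS calls and far from a rise of 20 points.

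Other clusters that stayed were named after their values had been seen or for a list or limit. A cluster near Cirbp, a cold-induced RNA-binding protein, and Fam174c stood at 14.9% and 6.55%. Clcn4, a chloride and proton exchanger, stood at 68.3% of 1112 calls and 58.5% of 1126. Mrgprf stood at 34.55% and 44.55%, a difference of 9.996 points, just under the limit of 10. Oxct2b, a ketone body enzyme of germ cells, stood at 67.9% of 81 calls and 71.0% of 100 on 11 measured CpGs of 32, with an interval of -10.12 to 16.51 points. The shallow clusters of Pcdhb22 and Oxct2b are the only members under 8 calls per measured CpG in a table, and there a change of 10 points was not detectable at this depth.

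The 1 member that fell was a cluster at Pik3c3, the lipid kinase of autophagy and endosomes, on chromosome 18. It stood at 35.0% of 306 calls and 0.587% of 341, with an interval of the difference of -39.9 to -29.0 points, and it was not called with calls divided by the number of CpGs. All of its 19 measured CpGs were lower or equal in 60M-GS. Among the 9 that moved by 10 to 20 points, 8 were higher, from Irf2bp1 (24.3% and 43.8%, a difference of 19.5 points that became 20.6 with a minimum of 10 calls per CpG) to Kbtbd13 (23.5% and 33.5%), and 1 was lower, Ccdc194 (48.4% and 38.1%). Irf2bp1, Kbtbd13 and Ccdc194 were named after their values had been seen.

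Inside the clusters that rose, most CpGs had a middle level where the cluster as a whole was not low. In the median cluster of the 135, 78.8% of CpGs were between 20% and 80% in 5M-GS and 90% of CpGs were above 80% in 60M-GS. Among all 78 members at 10% to 30% in 5M-GS the median cluster instead had 64.85% of CpGs under 20% and 34.55% between 20% and 80%. Of 3789 CpGs in the 135 clusters that rose, 3703 (97.7%) were higher in 60M-GS, a share that follows from how those clusters were picked. Over all members it was 4118 of 4749 CpGs (86.7%). The sides toward the lower and the higher coordinates differed by at least 20 points in 20 of the 135 in the younger culture and in 8 in the older one. In the clusters that stayed, whose median level was low, the median cluster had 71.4% of CpGs under 20% in 5M-GS and 66.2% in 60M-GS. Of their 479 CpGs, 171 (35.7%) were higher in 60M-GS, 160 were lower and 148 were equal. The sides differed by at least 20 points in 8 of the 15 in both tables.

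Several clusters that stayed or moved by 10 to 20 points had 1 unmethylated side, which remained so, and 1 partly methylated side. At Wdr46 the side toward the start stood at 0.288% and 0.314%, and the other side at 28.3% and 41.1%. At Ankle1 the side toward the start stood at 0.293% and 1.41%, and the other side at 27.4% and 34.5%. Irf2bp1, a co-repressor, held the longest of these clusters with 166 CpGs. Its side toward the start stood at 0.433% and 1.02%, and its side inside the gene at 44.4% and 72.9%. Kbtbd13, with 123 CpGs, stood at 0.290% and 0.499% on the start side and at 56.2% and 81.4% on the inner side. Rnf7 was different, with 43 of its 74 measured CpGs at 0 in both tables around a stretch of CpGs of which the highest single value was 71.4% in 5M-GS and, at other CpGs, 64.7% in 60M-GS. The change at Irf2bp1 and Kbtbd13 was thus on the side away from the start.

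**Figure D3:**
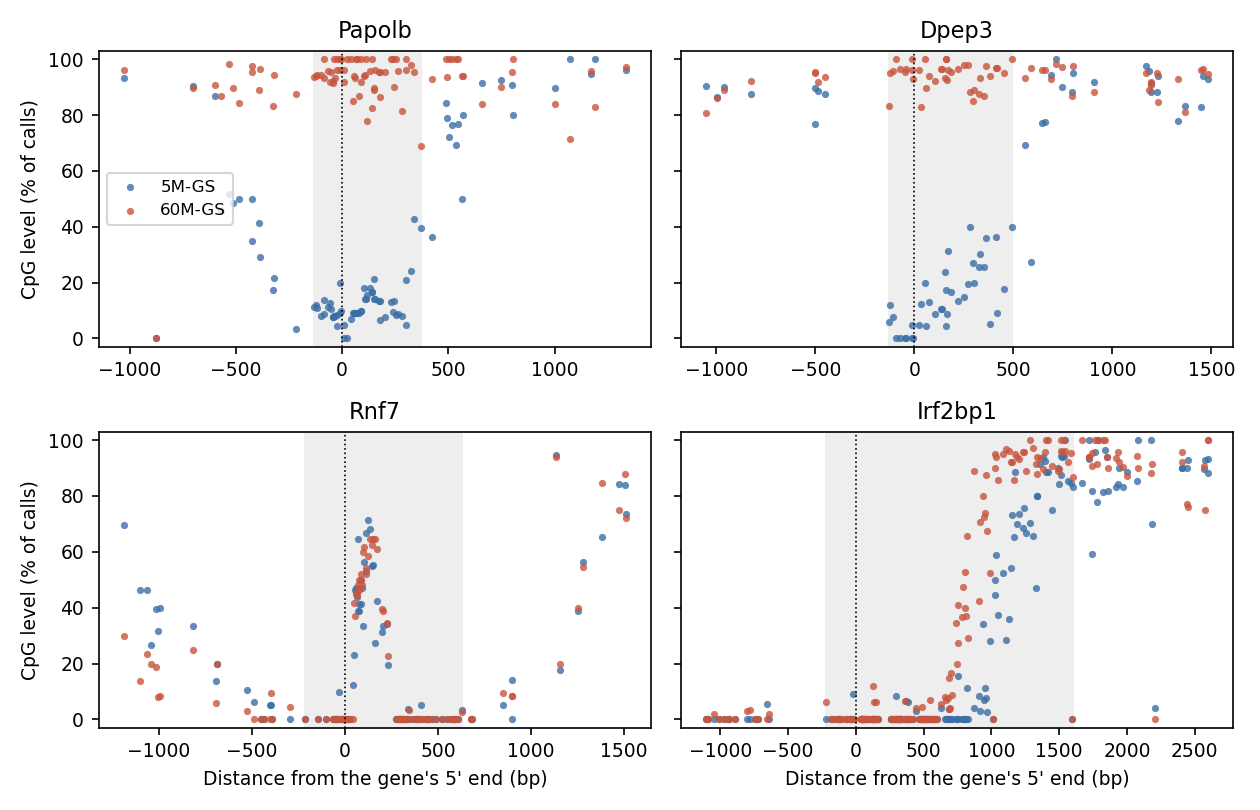
Level of each CpG with at least 5 calls in both tables (y axis, percent of calls) against its distance from the gene's 5′ end (x axis, bp, negative upstream) for Papolb, Dpep3, Rnf7 and Irf2bp1, in 5M-GS (blue) and 60M-GS (red), with the cluster shaded. In Papolb and Dpep3 the blue points dip to 0% inside the shading and the red points there lie at 69.0% or more, in Rnf7 most points of both colours lie near each other inside the shading and the blue ones are higher at the far left, and in Irf2bp1 the red border lies nearer to the start than the blue one.

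CpGs of the flanks did not enter the choice of the members. They were taken from 300 to 2000 bp outside each cluster and outside any other cluster. Around the 135 clusters that rose, flanks had medians of 70.9% and 81.8%, so most were already well methylated. Taken cluster by cluster, the change of the flanks was smaller, with a median of 4.51 points over all members. Protocadherin flanks began lower, with medians of 32.0% and 80.7%. For the 135, flank minus cluster had a median of 24.02 points in 5M-GS and of -7.14 points in 60M-GS, where the cluster was the higher one. The level and the rise of the cluster chose these 135, so that reversal follows in part from the choice. Flank minus cluster had medians of 38.6 and 24.8 points for the 15 that stayed. Of 159 members with measured flanks, 23 had flanks higher by at least 20 points, against 3.9% over the flanks of all clusters, and 13 of the 23 were protocadherins. Around the 15 that stayed, flanks had a median of 53.5% and 58.5%. At Papolb the flanks stood at 83.8% and 89.1%, at Dpep3 at 90.6% and 90.2%, at Tmprss12 at 89.8% and 89.9%, and at Pcdhb15 at 32.1% and 88.1%. The first 3 clusters were local dips in 5M-GS, whereas around Pcdhb15 the whole neighbourhood was low in 5M-GS.

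**Figure D4:**
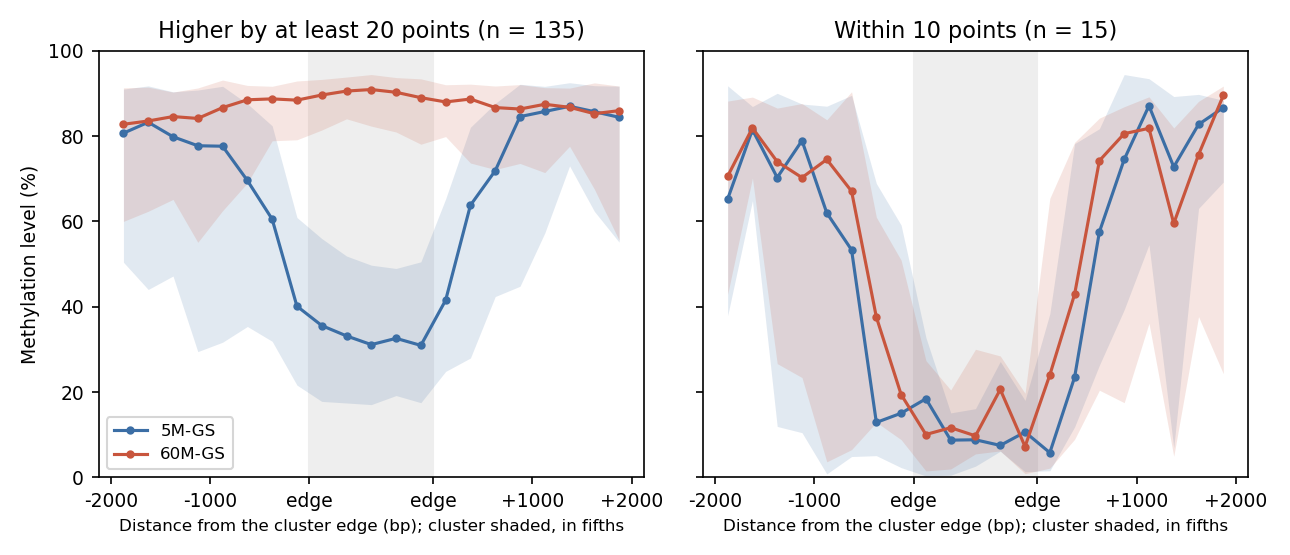
Median methylation level (lines, percent) and range from the lower to the upper quartile (shading) over clusters that were higher by at least 20 points (left) and clusters within 10 points (right), in bins of 250 bp outside and in 5 parts inside the cluster, leaving out CpGs of other clusters. On the left the 5M-GS line dips from about 80% to a lowest value of 30.9% in the cluster and the 60M-GS line stays between 82.8% and 90.9%. On the right both lines dip, on 10 to 15 clusters per bin, and they part in some bins. The 60M-GS line is higher in bins beside the cluster (12.87% and 37.57% in 1 of them) and lower in some farther out (72.77% and 59.51% in 1).

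The starts of the same genes, where a cluster outside the set marked them, were mostly unmethylated in both tables, as were end clusters in general: of those under 10% in 5M-GS 98.5% stayed within 10 points. Members were left out here, so in 5M-GS a start cluster could only be under 10% or over 70%. Among all end clusters 14097 were under 10% and 248 over 70%, so a low start cluster was nearly fixed by this choice. Of the 135 clusters that rose, 65 belonged to a gene with such a start cluster at its 5′ end, and those start clusters had medians of 0.464% and 0.485%. 64 of the 65 were under 10% in both tables. The exception among these 65, named because it is the only one there, was Hspa12b, a relative of Hsp70. Its start cluster went from 1.02% to 48.2% while its member cluster went from 65.1% to 91.4%. All 7 start clusters of genes whose member stayed were under 10% in both. An unmethylated cluster (under 10% in both tables) lay within 2 kb of 24 of the 135 clusters that rose and of 7 of the 15 that stayed. Over the gene span, without 2 kb at each end, genes of clusters that rose had a median of 77.8% and 81.6% (95 clusters measured), and genes of clusters that stayed 83.6% and 83.3% (11 clusters).

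Most members lay toward 3′ ends and inside their gene. With strands known for 119 of them, 87 were nearest to a 3′ end and 32 to a 5′ end, and 140 of the 160 midpoints were inside the nearest gene. The table gives no exons, so exon, intron and UTR were not analysed here. Toward 3′ ends 78 of 87 rose (89.7%), with a median of 90.05% in 60M-GS. Toward 5′ ends 22 of 32 rose (68.8%), with a median of 74.1%. The groups also differed in where they began: 20 of these 32 were at 10% to 30% in 5M-GS, against 36 of the 87 toward 3′ ends. For 41 clusters the strand was not in the table, and 35 of these rose. These shares were not tested against each other, since all come from the contrast that the 5M-GS level entered.

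At the starts themselves, the promoter entries near members were of several kinds. Beside the 3 shown above, the entry of Fgf6, 31 bp from its cluster, went from 15.1% to 83.7%, that of Olfr1349 from 12.6% to 82.2%, and that of Ldhal6b, a lactate dehydrogenase-like gene 163 bp from its cluster, from 0% of 159 calls to 89.4% of 179 on 8 CpGs. That of Actl10, with 4 CpGs, went from 34.5% to 76.3%. Near 0 in both tables were the entries of Irf2bp1 (0.389% and 0.336%), Wdr46 (0.364% and 0%), Ankle1 (0% and 0%), Rapgefl1 (0.442% and 0%), Foxa2 (0.431% and 0.376%) and Rtl6 (0.394% and 0.346%). That of Kbtbd13 stood at 0.625% and 2.62%. Beside clusters that rose, the entry of D1Pas1 stood at only 2.47% and 8.68% on 15 CpGs. That of Syne4, near the cluster of Alkbh6, stood at 13.3% of 30 calls and 4% of 25 on 2 measured CpGs. Clcn4 had 2 listed starts, one inside the cluster at 68.6% and 60.1% and one 374 bp away at 0% and 1.01%. Ldhal6b, Rtl6, D1Pas1 and Syne4 were named after their values had been seen. Short motifs were searched on both strands in the 22 entries of members' protein-coding genes within 500 bp of a cluster and in all 20085 entries of protein-coding genes. The GC box GGGCGG was in 8 of 22 (36.4%) and in 47.0% of all. The E-box CACGTG was in 3 (13.6%) and in 7.89%, and the cAMP response element TGACGTCA in 2 (9.09%), those of Rnf7 and Clcn4, and in 2.3%. The E2F-type letters TCCCGC were in 5 (22.7%) and in 26.3%, the longer TTCCCGC, which contains it, in 2 (9.09%) and in 6.05%, and the NRF1-type GCGCATGC in 0 and in 3.55%. With 22 entries a difference of a few matches cannot be read as one between the sets.

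Clusters elsewhere at the same 5M-GS level moved in the same direction. Of 431 clusters at 10% to 70% inside protein-coding genes but off their ends, 325 were higher by at least 20 points (75.4%), with a median of 34.6% and 88.5%. Of 331 such clusters outside protein-coding genes, 194 were (58.6%), with a median of 45.0% and 78.4%. Of clusters at gene ends that began under 10%, 156 of 14097 gained (1.11%), and their median was 0.474% and 0.501%. Of the 248 end clusters over 70%, 2 gained and 1 lost, with a median of 91.2% and 92.1%. Clusters near full had no room for a rise of 20 points, and no share was tested as particular to gene ends.

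**Figure D5:**
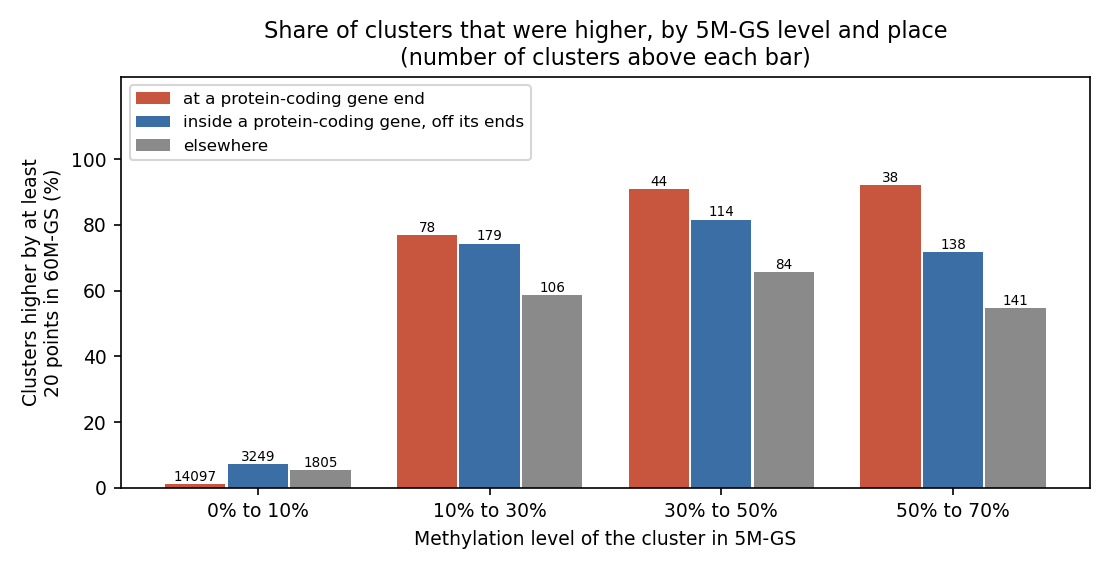
Share of clusters that were higher by at least 20 points in 60M-GS (y axis, percent) for 4 classes of 5M-GS level (x axis) and 3 places, with the number of clusters above each bar. Clusters under 10% show 1.11% at gene ends, while classes from 10% to 70% show 54.6% to 92.1%.

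Clusters next to the limits of the choice moved in several ways. Just inside 10% were Actl10 (10.0% and 89.6%) and Nrbp2 (10.3% and 43.3%), and just outside were Pcdha11 (9.74% and 74.95%) and Ankrd9 (9.65% of 2228 calls and 94.2% of 2284). Just inside 70% were the shallow cluster of Pcdhb22 and Clcn4, given above, and just outside were Nfe2, a transcription factor of blood cells (70.3% and 87.5%), and Vmn2r29, a vomeronasal receptor (71.1% and 46.0%).

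The tables were alike in depth. They held 468121185 calls on 19371838 CpGs in 5M-GS (median 21 per CpG) and 471693518 calls on 19341319 CpGs in 60M-GS (median 22). Members had a median of 26.9 and 27.9 calls per measured CpG, against 21.0 and 21.2 for all clusters at gene ends, and were shorter than those, with a median of 26.5 CpGs and 435.5 bp against 51 CpGs and 580 bp. The label was checked at promoters with a known state. Of 13 listed maternally methylated imprinted promoters, which are low in male germline cells, 12 were measured, with medians of 3.6% and 2.14%. The 2 above 10.8% were Mcts2 (4.83% and 92.6%) and the listed start of Snrpn (31% and 45% on 3 CpGs). Promoters of 5 of 8 spermatogonial genes were measured, among them Dazl (2.8% and 2.41%), Ddx4 (4.75% and 3.81%) and Nanos2 (63.6% and 55.1%), and 4 of 7 fibroblast genes, for feeder cells, were at 2.06% or less in both. Unmethylated fibroblast promoters do not tell cell types apart, and the share of other cells in the cultures was not tested.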

How the data were processed

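Per the labels' protocols, bisulfite libraries of 5M-GS and 60M-GS cells, 2 replicates each, were tagged with adaptors after conversion (PBAT). Bismark 0.10.0 and mm10 are named in the submitters' processing notes. The authors deposited 1 table per age with counts of methylated and of unmethylated calls per CpG and the percent of methylated calls, which matched the counts at every CpG. Both replicates of an age are tied to 1 table, so they were taken as pooled before deposit. For filters, removal of duplicates and merging of strands the sources used here give nothing. Positions were checked against promoter sequences: 388915 of 395568 CpGs (98.3%) were found at the C and 0 at the G, so a CpG has 1 position, its C.

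Levels sum methylated and all calls over the CpGs called 5 times or more in each table. Clusters with at least 4 such CpGs entered a two-sided Fisher's exact test with Benjamini-Hochberg adjustment over 22500 clusters, and were called at an adjusted p under 0.05 and a difference of at least 20 points. Intervals are 95% Wilson intervals for levels and Newcombe intervals for differences. They cover counting error only, as neighbouring calls can come from the same read. Gene positions came from RefSeq on GRCm38.p6, the build of mm10, with strands from its promoter table for 16457 of 20665 protein-coding genes. Members, gene lists and tests were chosen with earlier results of these data known. Named were the 12 largest rises, the 10 smallest differences with at least 500 calls in both tables, falls of at least 20 points (up to 8), up to 6 members per list plus its 2 smallest differences, and the 2 clusters on each side of each limit. Predicted and clone-named genes (4 members, all risen) were counted and not named. The result for 1 further cluster is not reported here. The alternatives changed the call minimum, cluster definition, level limits, thresholds, the weight of a call and the flank. Python 3.11.15 with NumPy 2.4.6, SciPy 1.17.1 and pandas 2.3.3 was used. The X and Y chromosomes were not used here.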

Additional observations from a re-analysis of the deposited data

How the results depend on the processing

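No paired analysis was possible because each age has 1 table for both of its replicates, and for the same reason no replicate could be left out in turn. The median difference of the members stayed above 0 in every setting tried, and the definition of a cluster moved the number of members most. With gaps of at most 30 bp there were 34 members, of which 23 rose, with a median of 85.9% in 60M-GS and a median difference of 45.7 points. With gaps of at most 100 bp there were 1007, of which 570 rose, with 66.3% and 25.8 points. With at least 30 CpGs 45 of 59 rose (median difference 45.5 points), with midpoints within 1 kb of an end 60 of 74 (47 points), and at 20% to 60% in 5M-GS 81 of 89 (47.2 points). Chosen by the 60M-GS level, the median was 28.0% in 60M-GS and the median difference 22.0 points. Without members within 2 kb of an unmethylated cluster, an alternative added after seeing the data like those without protocadherins, with 1 cluster per gene or without shallow members, it was 47.2 points. The other settings kept all 4 values close.

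With calls divided by the number of CpGs 697 clusters gained and 3 lost over all 22500, against 1168 and 27, and 79 of the 135 rises were still called, while the fall at Pik3c3 was not. With a difference of at least 30 points 14 clusters lost. With the 5′ end taken as the CpG-dense end, 36.4% of placed members were nearest to a 5′ end, against 26.9%. With flanks from 500 to 5000 bp their median difference was 2.06 points, against 4.51. Single members changed side of a threshold in 3 further cases: Irf2bp1 at a minimum of 10 calls (20.6 points), Limch1, named to complete this count, with the mean of CpG levels (18.5 points) and, with its direction turned, the shallow cluster of Pcdhb22 at a minimum of 1 call (-21.4 points).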
